A study of Mus musculus with 9 samples.

Results

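A set of 31 mouse genes of cholesterol handling was followed in liver RNA from animals with altered Snd1. They were taken by symbol from the deposited table, and all 31 had a mean of at least 10 normalized counts over the 9 libraries, out of 19944 genes listed and 15238 genes at or above that mean. The members fall into 5 roles, namely control of the transcription factor SREBP2 (4 genes), the early enzymes that lead to squalene (8 genes), the late enzymes that turn squalene into cholesterol (10 genes), uptake and transfer (3 genes), and the LXR group of efflux and esterification genes (6 genes). The libraries came from livers of male FVB mice, 60 days old and fed normal chow. They comprised Snd1 knockout (KO), a knock-in whose SND1 protein has a mutated Tudor domain (KI), and wild type (WT), with 3 libraries of each genotype. The SND1 protein joins repeats related to a bacterial nuclease with a Tudor domain, by which it binds methylated arginine. How the knockout was made, which residue was mutated and whether animals shared a litter are not given in the sources used here, so p-values measure only the spread between these libraries.

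Cholesterol is built from acetyl-CoA by a long series of enzymes, most of which answer together to SREBP2. When the membrane of the endoplasmic reticulum is rich in sterol, INSIG proteins hold the SCAP and SREBP2 complex there, and when sterol is low SCAP carries SREBP2 to the Golgi, where it is cut to release an active factor. Liver also takes cholesterol up from lipoproteins, exports it through LXR target transporters and turns it into esters or bile acids, so the same cells hold both the supply and the disposal side of the pathway.

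The promoters of the members that passed a test in any comparison are shown because SREBP2 acts through short elements near gene starts, together with the factors that bind CCAAT and GC boxes. RefSeq entries (build GRCm38.p6) were found for 25 of the 31 genes, and for 5 of the 7 genes that passed. The windows run from 250 bases before the annotated start to 50 after it, 5′ to 3′ on the gene's strand, and capitals mark any match on either strand to the sterol element TCACNCCAC, the E-box CACGTG, the CCAAT box CCAAT or the GC box GGGCGG.
Hmgcs1, chr13:119690101-119690400, forward strand: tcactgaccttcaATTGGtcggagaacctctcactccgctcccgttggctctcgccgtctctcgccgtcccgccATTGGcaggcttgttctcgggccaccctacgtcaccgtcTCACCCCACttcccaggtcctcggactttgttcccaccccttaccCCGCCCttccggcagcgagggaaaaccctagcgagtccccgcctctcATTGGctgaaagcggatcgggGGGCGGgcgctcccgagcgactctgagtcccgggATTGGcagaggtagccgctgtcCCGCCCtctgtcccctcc
Insig2, chr1:121332540-121332839, reverse strand: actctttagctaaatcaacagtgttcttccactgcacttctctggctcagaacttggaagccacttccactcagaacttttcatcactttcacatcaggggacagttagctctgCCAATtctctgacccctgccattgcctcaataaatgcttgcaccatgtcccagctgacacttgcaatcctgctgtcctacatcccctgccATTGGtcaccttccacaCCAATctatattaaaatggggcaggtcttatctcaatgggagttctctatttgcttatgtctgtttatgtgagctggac
Dhcr7, chr7:143822917-143823216, forward strand: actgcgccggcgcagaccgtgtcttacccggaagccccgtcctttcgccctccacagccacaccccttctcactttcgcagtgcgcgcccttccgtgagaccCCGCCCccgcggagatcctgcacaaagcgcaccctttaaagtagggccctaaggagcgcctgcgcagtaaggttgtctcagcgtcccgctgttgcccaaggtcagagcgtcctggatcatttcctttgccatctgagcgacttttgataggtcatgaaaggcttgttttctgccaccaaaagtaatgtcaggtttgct
Lcat, chr8:105943353-105943652, reverse strand: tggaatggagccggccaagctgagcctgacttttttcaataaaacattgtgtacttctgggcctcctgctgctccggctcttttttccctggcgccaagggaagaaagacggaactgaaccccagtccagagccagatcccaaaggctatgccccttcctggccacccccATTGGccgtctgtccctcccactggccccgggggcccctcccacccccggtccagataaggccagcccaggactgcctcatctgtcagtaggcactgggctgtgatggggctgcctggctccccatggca
Tm7sf2, chr19:6067801-6068100, reverse strand: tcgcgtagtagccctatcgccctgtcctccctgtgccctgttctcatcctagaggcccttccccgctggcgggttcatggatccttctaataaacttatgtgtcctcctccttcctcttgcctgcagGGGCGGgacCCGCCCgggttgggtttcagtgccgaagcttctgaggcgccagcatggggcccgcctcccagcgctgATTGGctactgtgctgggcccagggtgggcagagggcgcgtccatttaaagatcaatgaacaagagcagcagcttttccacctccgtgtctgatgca
Scarb1 and Soat2 passed as well and had no entry. The Hmgcs1 window holds 1 match to the sterol element, on the forward strand from base -137 to base -129 before the start, with 4 CCAAT boxes and 3 GC boxes around it. The Insig2 window holds 3 CCAAT boxes and no GC box, the Lcat window 1 CCAAT box, the Dhcr7 window 1 GC box, and the Tm7sf2 window 1 CCAAT box and 2 GC boxes. The windows shown are the first annotated window of each gene. In other annotated windows Dhcr7 also had an E-box and a CCAAT box, and Insig2 a GC box.

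Over all annotated windows of a gene, the sterol element as spelled here was found in 1 of the 25 members with an entry, Hmgcs1, and in 1.44% of 27025 genes. CCAAT boxes were in 21 members (84%), against 41.1% of all genes, and GC boxes in 20 members (80%), against 38.2% of all genes. The E-box was in 6 members (24%), against 8.09% of all genes, and a direct repeat of AGGTCA with a spacer of 4 bases, an LXR element, in 0 of the 25 and 0.0148% of all genes. No motif contains another, though matches on the same bases could overlap in part, and a match is a description of the sequence only. Per window of 300 bases the shares over all 32851 windows were 1.24% for the sterol element, 37.4% for CCAAT, 35.7% for the GC box, 7.15% for the E-box and 0.0152% for the direct repeat.

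**Figure D1:**
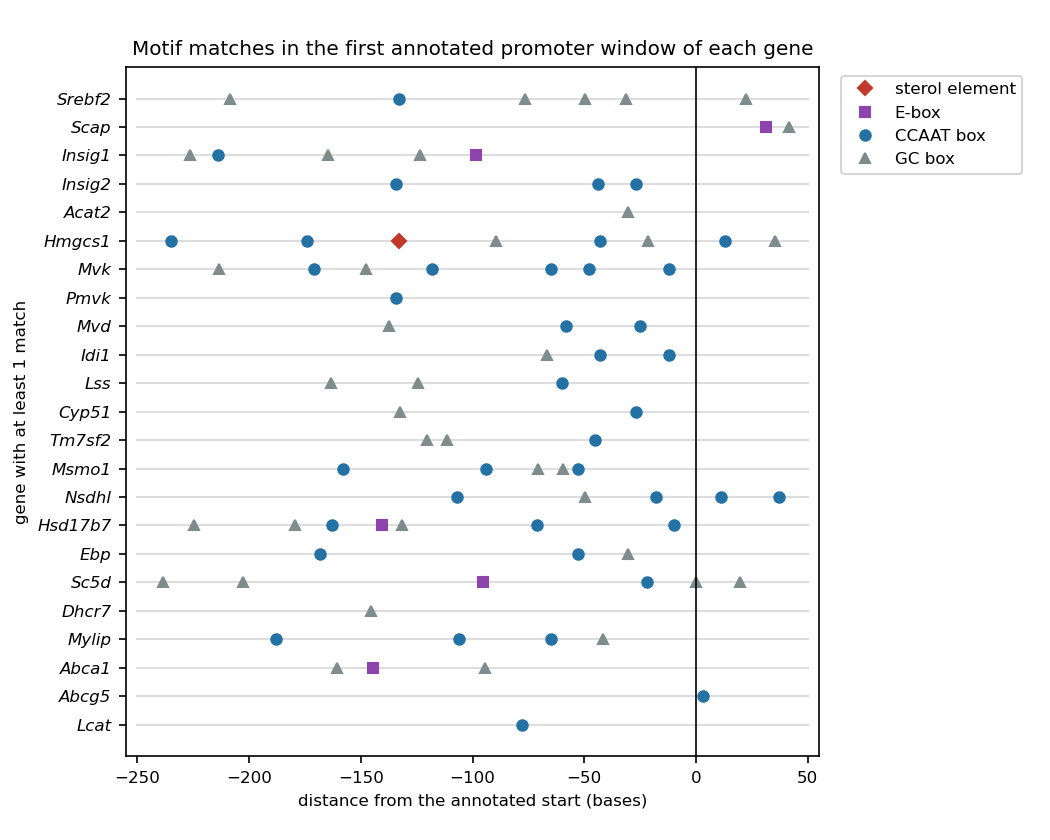
Positions of motif matches in the first annotated promoter window of each gene, drawn by distance in bases from the annotated start, with 1 row for each of the 23 genes that have at least 1 match. CCAAT boxes (circles) recur across the enzyme genes and are present in 19 of the first windows, while the sterol element (diamond) is in Hmgcs1 alone.

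Snd1 itself (chromosome 6, 28475139 to 28935162, forward strand, GRCm38) was checked first. It had 227, 414 and 359 normalized counts in KO, 5373, 7941 and 5595 in KI, and 6951, 8446 and 6512 in WT. The KO level was below WT in every library (log2 fold change -4.48 ± 0.23 SE, limma adjusted p = 8.82e-06), whereas the KI and WT ranges overlapped (-0.23, adjusted p = 0.745).

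The libraries held between 59678412 and 66384374 recovered reads. Samples are labelled as hepatocytes, while the tissue label and the protocol describe whole liver. All 8 hepatocyte markers were present in each group, with summed levels of 2611053 to 4706213 in KO, 3043576 to 4491953 in KI and 4031321 to 5335593 in WT. The 13 markers of exocrine pancreas made up 0.495% of the values of KI_1, 5.7% of KI_3 and 1.2% of WT_3, and at most 0.00524% of any of the other 6 libraries, where library names join genotype and replicate. Results that rest on those 3 libraries are therefore also given without them, a comparison that leaves KI with 1 library whose spread is assumed to be that of the others. In whole tissue, fewer cells of a type and less RNA per cell cannot be told apart.

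In KO livers 3 of the 31 genes were higher than in WT and 1 was lower. The means of Insig2, Scarb1 and Lcat were 2.01, 1.92 and 1.64 times those of WT, and Tm7sf2 was at 0.555 of the WT mean. The 4 genes that passed make 12.9% of the members, against 8.83% of all genes tested (limma, adjusted p under 0.05 by Benjamini-Hochberg adjustment over 15238 genes). The share called higher among all genes was 4.63% and the share called lower 4.2%. Members' groups did not overlap in 8 genes that were higher and 4 that were lower in KO, together 38.7% of the members, against 29.1% of all genes tested (15% higher and 14.2% lower). The median log2 fold change of the members was 0.02, against 0.00 for all genes tested, with 16 members positive and 15 negative.

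Insig2 encodes a retention protein of the endoplasmic reticulum, and in rodent liver much of its mRNA comes from a promoter that insulin represses. Insig2 (chromosome 1, 121304353 to 121332589, reverse strand) had 26711, 19984 and 21654 normalized counts in KO, 6892, 8178 and 6082 in KI, and 13559, 12506 and 7976 in WT. Every KO library lay above every WT library, and the log2 fold change was 1.03 ± 0.21 (SE; adjusted p = 0.0152 by limma). Its close relative Insig1, a retention protein whose gene is itself an SREBP target, had 15027, 11432 and 8759 in KO, against 19698, 14170 and 18941 in WT. The KO and WT ranges of Insig1 overlapped, and it did not pass (log2 fold change -0.60 ± 0.37, adjusted p = 0.35).

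Srebf2 and Scap, which complete the control group, did not pass in KO. Srebf2, which encodes SREBP2, had 3477, 3778 and 3025 normalized counts in KO, against 2638, 2720 and 2575 in WT. All KO values of Srebf2 were above all WT values, yet the fitted difference of 0.37 was small beside its error of 0.25 (adjusted p = 0.398). Scap, the escort protein, averaged 6056 ± 1767 in KO and 6184 ± 50.1 in WT (SD, n = 3 each).

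None of the 8 early enzymes passed in KO, where 8.83% of all genes tested did. Their log2 fold changes ran from -0.32 to 0.61. The top of that range was Hmgcs1, which makes HMG-CoA from acetyl units. Hmgcs1 (chromosome 13, 119690379 to 119708260, forward strand) had 15870, 21732 and 14584 normalized counts in KO, 3887, 12044 and 7962 in KI, and 12021, 9659 and 12086 in WT. The KO libraries were all above the WT libraries, but the difference of 0.61 ± 0.34 did not pass (adjusted p = 0.296). Its exons overlap those of a predicted gene on the opposite strand, and the strand setting of the counting is not given in the sources used here. The thiolase Acat2, the kinases Mvk and Pmvk, the decarboxylase Mvd, the isomerase Idi1, the prenyl synthase Fdps and the squalene synthase Fdft1 had adjusted p between 0.504 and 0.967 in KO against WT.

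Of the 10 late enzymes, 1 passed in KO, on the lower side (10%, against 4.2% of all genes tested called lower). Their KO and WT values did not overlap in 3 genes that were lower and 2 that were higher, against 14.2% lower and 15% higher of all genes tested. Tm7sf2, a sterol reductase that acts after the demethylase CYP51, had 6330, 4745 and 3077 normalized counts in KO, 6812, 9450 and 6663 in KI, and 8537, 9334 and 7649 in WT. Each KO value of Tm7sf2 (chromosome 19, 6062821 to 6068373, reverse strand) was below each WT value, with a log2 fold change of -0.91 ± 0.24 (limma adjusted p = 0.0426). Part of its exons is shared with Vps51 on the same strand, so the split of reads between them is uncertain. Dhcr7, the reductase of a final step, leaned to the other side, with 15302, 15589 and 8488 in KO, 3013, 6910 and 4207 in KI, and 6505, 7151 and 5366 in WT. The KO libraries of Dhcr7 (chromosome 7, 143823145 to 143848410, forward strand) were all above WT, with a mean ratio of 2.07, but the difference of 1.01 ± 0.31 missed the threshold (adjusted p = 0.0698). It passed with DESeq2 (1.05, adjusted p = 0.00767), with the replicate block (0.0341), without KO_3 (0.0342) and without KI_2 (0.0387).

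Hsd17b7, an enzyme that removes methyl groups from the sterol ring together with Msmo1 and Nsdhl, had 3170, 3120 and 2315 normalized counts in KO, 2103, 3835 and 2706 in KI, and 4426, 4464 and 4618 in WT. All KO and all KI values of Hsd17b7 were below the narrow WT range. It missed the threshold in KO (log2 fold change -0.66 ± 0.20, adjusted p = 0.0689). Sc5d, the desaturase, had 10981, 7593 and 5826 in KO, 6176, 10761 and 7528 in KI, and 13582, 12275 and 13446 in WT. Sc5d likewise had no KO or KI library inside the WT range, and did not pass in KO (-0.74 ± 0.24, adjusted p = 0.0896). The epoxidase Sqle was higher in each KO library (4063, 7517 and 4124) than in any WT library (3571, 3608 and 3351), without passing (0.51, adjusted p = 0.311). The cyclase Lss, Cyp51, Msmo1, Nsdhl and the isomerase Ebp had log2 fold changes between -0.27 and 0.24 in KO.

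On the uptake side, Scarb1 had the smallest p of all 31 genes in KO against WT. It encodes the receptor SR-BI, through which hepatocytes take cholesteryl ester from high-density lipoprotein. Scarb1 (chromosome 5, 125277087 to 125341094, reverse strand) had 22266, 19124 and 14954 normalized counts in KO, 7988, 10202 and 8506 in KI, and 10199, 10700 and 8405 in WT. The lowest KO library was above every KI and WT library, and the log2 fold change over WT was 0.93 ± 0.17 (limma adjusted p = 0.00973). Stard4, a soluble sterol carrier, had 9350, 8004 and 5522 in KO, 9716, 13815 and 9251 in KI, and 11617, 11796 and 13644 in WT. Its KO values lay below WT without overlap and narrowly missed the threshold (-0.73 ± 0.21, adjusted p = 0.0582). Mylip, a ubiquitin ligase that marks lipoprotein receptors for breakdown, varied from 546 to 1200 in KO, 395 to 932 in KI and 649 to 770 in WT.

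Lcat, which encodes the plasma enzyme that esterifies cholesterol on lipoproteins, was the member of the LXR, efflux and esterification group that passed in KO. Lcat (chromosome 8, 105939551 to 105943382, reverse strand) had 25985, 34265 and 28424 normalized counts in KO, 16294, 21631 and 17398 in KI, and 18992, 18641 and 16362 in WT. All KO libraries exceeded all WT libraries, with a log2 fold change of 0.71 ± 0.16 (limma adjusted p = 0.0225). Per kilobase of exon, Lcat had the highest mean level of the 31 genes in each genotype, at 22025 normalized counts per kilobase in KO, 13741 in KI and 13412 in WT, and Fdps the lowest, at 58.5 in KO, 26.7 in KI and 46.6 in WT. Abca1, the exporter that loads apolipoprotein A-I, had 13121, 16450 and 10558 in KO, against 7814, 13369 and 8061 in WT, and did not pass (0.48, adjusted p = 0.23). Abcg5 and Abcg8, whose proteins pair to export sterol into bile, ranged from 2218 to 5902 and from 1919 to 7202 in KO, against 4398 to 5119 and 4359 to 6346 in WT. In both genes KO_1 was the highest and KO_3 the lowest of the 9 libraries, and their exons overlap on opposite strands. Nr1h3, which encodes the receptor LXR-alpha, averaged 5255 ± 464 in KO and 5175 ± 247 in WT.

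The calls of Insig2 and Scarb1 in KO held under 20 of 21 other settings, and both were lost without the 3 libraries with pancreatic transcripts (log2 fold change 0.80, adjusted p = 0.131, and 0.83, adjusted p = 0.151). Lcat kept its call under 15 settings and Tm7sf2 under 10. Lcat missed the threshold without KO_2 (0.60, adjusted p = 0.0908), WT_1 (adjusted p = 0.0674), WT_2 (0.0637) or WT_3 (0.0886). Tm7sf2 missed it without KO_2 (adjusted p = 0.114), KO_3 (-0.63, adjusted p = 0.089) or any 1 of the KI_1, KI_3, WT_1, WT_2 and WT_3 libraries (adjusted p = 0.0587 to 0.128), and with the reads tested by edgeR (adjusted p = 0.0629). Upper quartile scaling gave 3 members higher and 3 lower in place of 3 and 1, adding Hsd17b7 (adjusted p = 0.0462) and Stard4 (0.0344). DESeq2 called Hsd17b7 (adjusted p = 0.025), Stard4 (0.0156) and Sc5d (0.0452) lower as well. All 3 passed without KO_1 (adjusted p = 0.0483, 0.0153 and 0.0121), as did Abcg8 (-1.10, adjusted p = 0.0182). Hsd17b7 also passed without KI_1 (0.0445) or KI_2 (0.0295) and with only those groups (0.0376), and Stard4 without KI_2 (0.0446). Without the 3 libraries 0 members passed and 30 of the 15238 genes did, while the members' median stayed at 0.02.

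**Figure D2:**
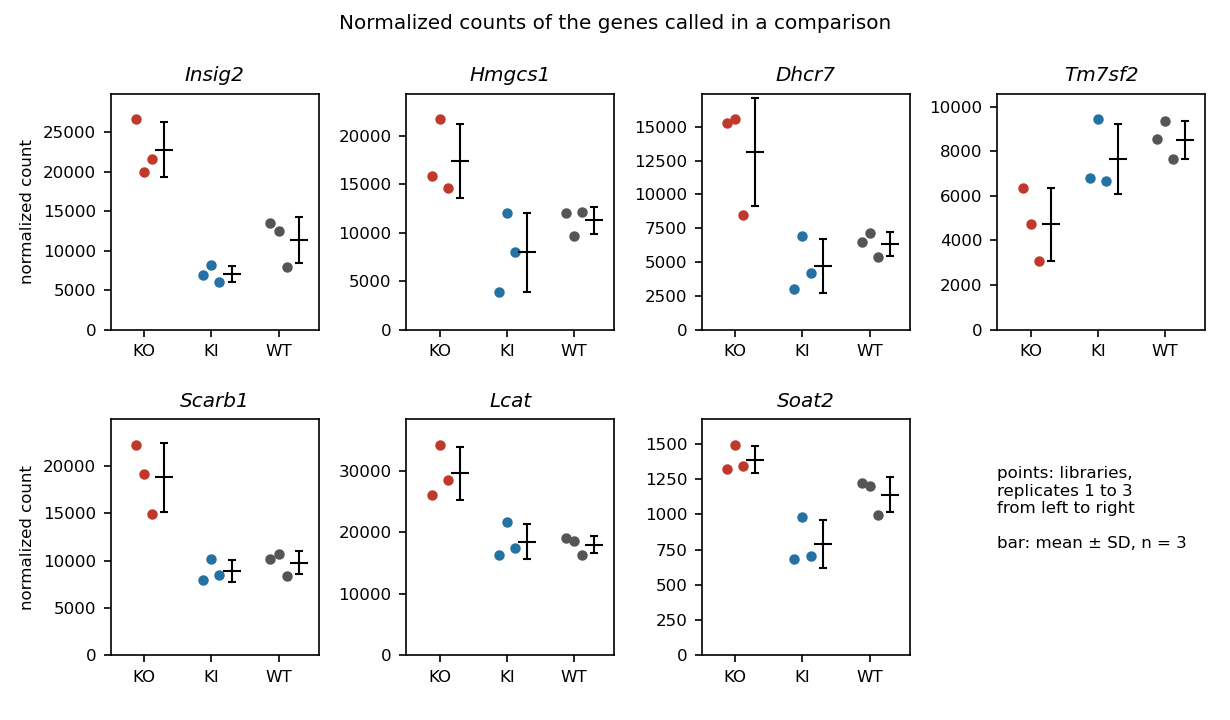
Normalized counts of the 7 genes that passed in at least 1 comparison, in each KO, KI and WT library (points) with the mean ± SD of each genotype (black bars, n = 3). In Insig2, Scarb1 and Lcat the 3 KO points lie above all KI and WT points, and in Tm7sf2 below all of them, down to 3077 in KO_3.

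The Tudor mutant was compared with WT to ask what the domain contributes. No member passed, and 28 of the 31 had a negative log2 fold change, with a median of -0.39 against 0.00 for all genes tested. In this comparison limma called 0.0263% of all genes, 4 of 15238 (0.0197% lower and 0.00656% higher), so a count of 0 members stands against a background close to none. At an unadjusted p under 0.05 there were 4 members, and edgeR and DESeq2 on recovered reads also called 0. Groups did not overlap in 4 genes that were lower and 1 that was higher in KI, or 16.1% of the members against 19.6% of all genes (10.2% lower and 9.47% higher).

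The smallest p in KI against WT belonged to Soat2, the enzyme that esterifies cholesterol inside hepatocytes for storage and lipoprotein assembly. Soat2 (chromosome 15, 102150526 to 102163469, forward strand) had 682, 981 and 701 normalized counts in KI, against 1225, 1201 and 993 in WT. KI was lower than WT in every library, narrowly for KI_2, and the log2 fold change of -0.55 ± 0.16 did not pass (limma adjusted p = 0.22). Hsd17b7 was next at -0.69 (adjusted p = 0.223) and Insig2 at -0.66 (adjusted p = 0.255), where KI_2 at 8178 was inside the WT range. Sc5d followed at -0.72 (adjusted p = 0.275). Fdps had 32.2, 135 and 169 in KI, against 153, 210 and 225 in WT, so KI_1 set most of its log2 fold change of -1.08 ± 0.51 (adjusted p = 0.452). Its exons overlap a predicted gene on the same strand. Without the 3 libraries with pancreatic transcripts, which leaves KI_2 alone, the log2 fold changes of KI over WT were -0.31 for Soat2, -0.21 for Hsd17b7, -0.67 for Insig2, -0.26 for Sc5d and -0.40 for Fdps. Nr1h3 was the member whose KI libraries (5994, 5961 and 5907) all lay above WT (5435, 4944 and 5145), by 0.20 ± 0.10 without passing (adjusted p = 0.473).

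The KI libraries were unequal. Of the 31 genes, 28 were below the WT mean in KI_1, 28 in KI_3 and 10 in KI_2. The mean log2 difference of the 18 synthesis enzymes from the WT mean came to -0.99 for KI_1, 0.13 for KI_2 and -0.42 for KI_3. All 18 enzymes were below the WT mean in KI_1, 17 in KI_3 and 4 in KI_2. KI_2 was the highest of the KI libraries in 17 of the 18 enzymes and KI_1 the lowest in 16. Msmo1, the methyl oxidase, had 5728, 15328 and 10760 normalized counts in KI, against 15680, 12946 and 15221 in WT, which shows the same order of libraries; it was chosen after its values were seen. The median over the 31 genes was -0.13 without KI_1, -0.67 without KI_2, and 0.08 without the 3 libraries with pancreatic transcripts, where 14 of the 31 log2 fold changes were negative in place of 28.

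**Figure D3:**
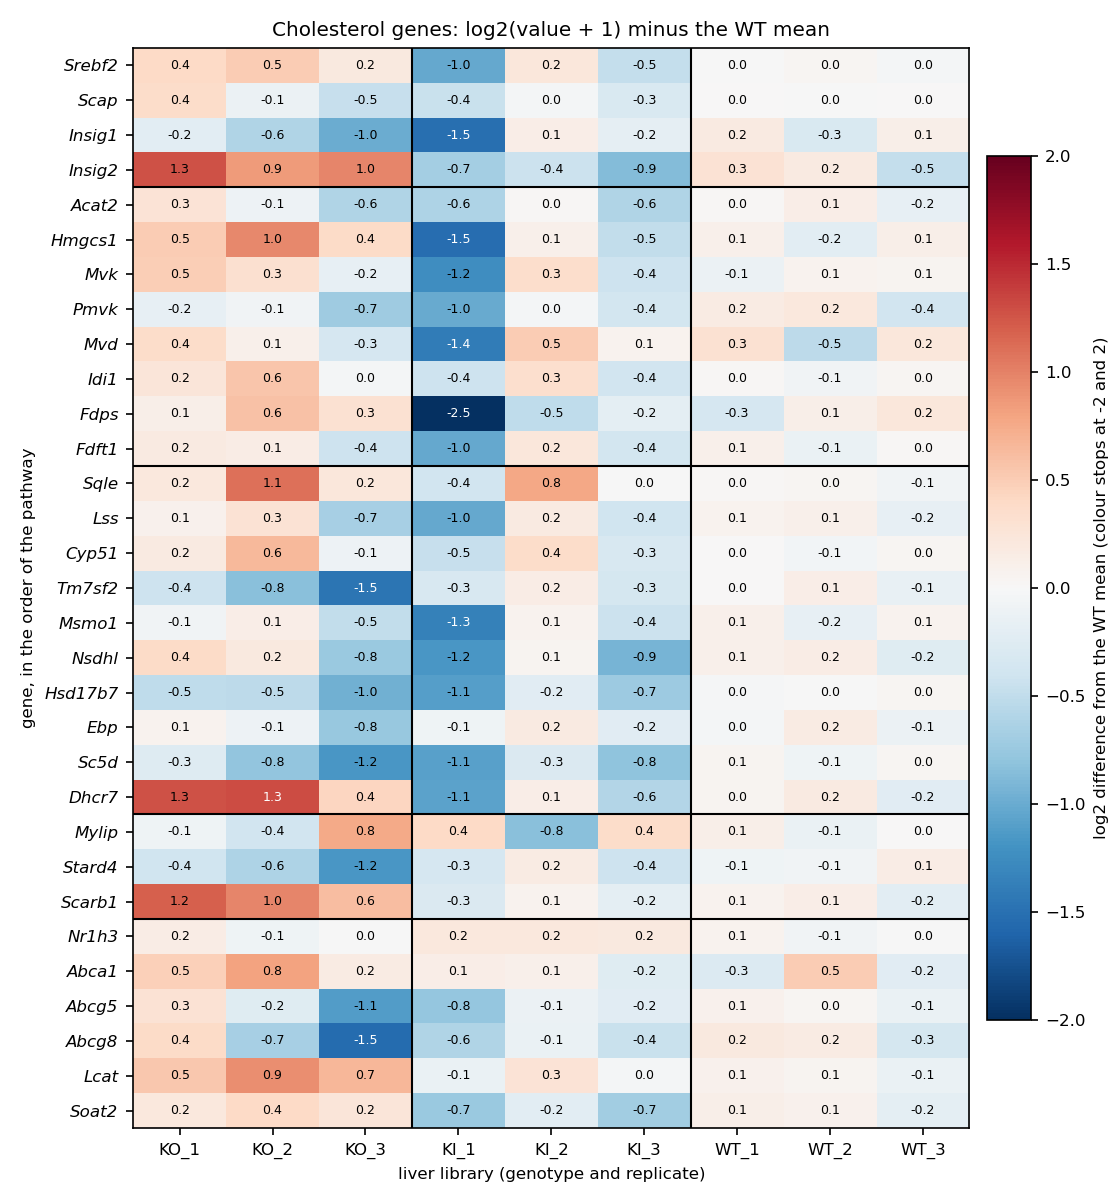
Log2(value + 1) of the 31 genes in each library minus the mean of the WT libraries, with genes in the order of the pathway and lines between roles and genotypes. Red is above the WT mean and blue below it. The KI_1 column is blue over all 18 enzymes, KI_2 is mostly pale, and the rows of Insig2, Dhcr7, Scarb1 and Lcat are red in each KO library. Srebf2, Hmgcs1, Fdps, Sqle, Abca1 and Soat2 are also above the WT mean in each KO library.

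The KO libraries were also unequal. The 18 enzymes lay at 0.17 in KO_1, 0.22 in KO_2 and -0.40 in KO_3 relative to the WT mean, against 0.03, 0.00 and -0.04 in the WT libraries. KO_3 was the lowest KO library in 16 of the 18. The same mean over all genes tested was between -0.08 and 0.09 in every library. Spread within a genotype was wider in the mutants, since the median SD of the members on the log2 scale was 0.36 in KO, 0.44 in KI and 0.14 in WT, against 0.27, 0.23 and 0.19 for all genes tested. The widest ratio of highest to lowest library was 3.75 in KO, for Abcg8, and 5.26 in KI, for Fdps.

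Summed markers of liver cell types differed along with the enzymes. The 8 hepatocyte markers summed to 2611053 in KO_3, 3043576 in KI_1 and 3242323 in KI_3, the lowest 3 of the 9 libraries, and to 4491953 in KI_2. Alb made up most of each sum, at 1815025 in KO_3, 1767535 in KI_1 and 1964223 in KI_3. Alb was the only one of the 8 hepatocyte markers with these 3 libraries as its lowest. Hnf4a had 44221 in KI_1 and 29444 to 37079 in WT, and Tat had 135197 in KI_3 and 58446 to 126474 in WT. The 5 endothelial markers summed to 18477 in KO_3, 17536 in KI_1 and 16960 in KI_3, the highest 3, while KO_1, KO_2 and KI_2 had 11271, 11421 and 10277, and WT 12463 to 14928. The 5 stellate cell markers had the same 3 libraries on top, at 17317 in KO_3, 17712 in KI_1 and 15588 in KI_3, with 9498 to 12195 in the other 6. Clec4g was the largest part of those endothelial sums (9983, 7835 and 8107), and Dcn made up most of the stellate sums (13614, 12194 and 10619). Not every marker of these lists had KO_3, KI_1 and KI_3 on top. In the endothelial list Pecam1, Lyve1 and Clec4g did, and Stab2 and Kdr did not. In the stellate list Dcn alone did, and Lrat, Reln, Col1a1 and Pdgfrb did not. Stab2 was highest in WT_2 (3525), and Reln was lowest of the 9 libraries in KO_3 (1346). Kupffer cell and macrophage markers (8 genes) summed to 19548 to 38089 in KO, 15001 to 24138 in KI and 12290 to 22959 in WT, and the 6 neutrophil and monocyte markers with a value to 185 to 1584 in KO, 92.3 to 398 in KI and 96.3 to 278 in WT. Within that Kupffer cell list 3 of the 8 genes passed by limma as higher in KO than in WT (37.5%, against 4.63% of all genes tested). In KI against WT 0 of 8 passed by limma, where only 0.0263% of all genes tested did. Mpeg1, a pore-forming protein of macrophages, had 8768, 8213 and 10335 normalized counts in KO, 4946, 4278 and 4565 in KI, and 4231, 2796 and 4468 in WT. It was higher in KO than in WT (1.27, limma adjusted p = 0.00276) and lower in KI than in KO (-0.98, adjusted p = 0.00963), as were Insig2, Scarb1 and Lcat. The scavenger receptors Marco (1.75, limma adjusted p = 0.0364) and Cd163 (1.24, adjusted p = 0.0436) were higher in KO than in WT too, as was Mmp8 (4.38, adjusted p = 0.0418) of the neutrophil list. Mmp8 was the 1 of 5 tested genes of that list that passed (20%, against 4.63% of all genes tested). Its values were low, at 10.1, 112 and 146 in KO, 10.7, 1.83 and 16.8 in KI, and 1.92, 0 and 6.01 in WT. S100a8 (2.49), S100a9 (2.40), Csf3r (0.35) and Ly6c2 (-0.07) did not pass in KO. Clec4f, Vsig4, Adgre1, Timd4 and Cd5l, the other Kupffer cell markers, had log2 fold changes between -0.53 and 0.15 in KO. Cholangiocyte markers (5 genes) lay between 477 and 691 in all libraries when summed. Among them Sox9, which also marks progenitor cells of the liver, had 101, 97.2 and 104 in KO, 38.6, 56.6 and 31.4 in KI, and 44.1, 24.1 and 41.0 in WT. It was higher in KO than in WT (1.49, limma adjusted p = 0.0249) and lower in KI than in KO (-1.28, adjusted p = 0.0453). Sox9 alone of the 5 passed in each of these comparisons (20%). The shares of all genes tested were 4.63% called higher in KO than in WT and 4.85% called lower in KI than in KO. Krt7 (0.34), Krt19 (0.19), Epcam (0.44) and Spp1 (-0.33) did not pass in KO against WT. They did not pass in KI against KO either, where Krt7, Krt19 and Spp1 were positive and Epcam was at -0.01. Under the 21 other settings Sox9 kept the first call in 14 and the second in 7, while Mpeg1 kept both in 20. In KO against WT Marco kept its call in 13 and Cd163 in 11, and Mmp8 in 11 of 20. Without the 3 libraries with pancreatic transcripts none of these markers passed, and the log2 fold changes of KO over WT were 1.40 for Mpeg1, 1.77 for Marco, 1.04 for Cd163, 5.06 for Mmp8 and 1.60 for Sox9. The part of these markers in the enzyme levels was not tested.

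**Figure D4:**
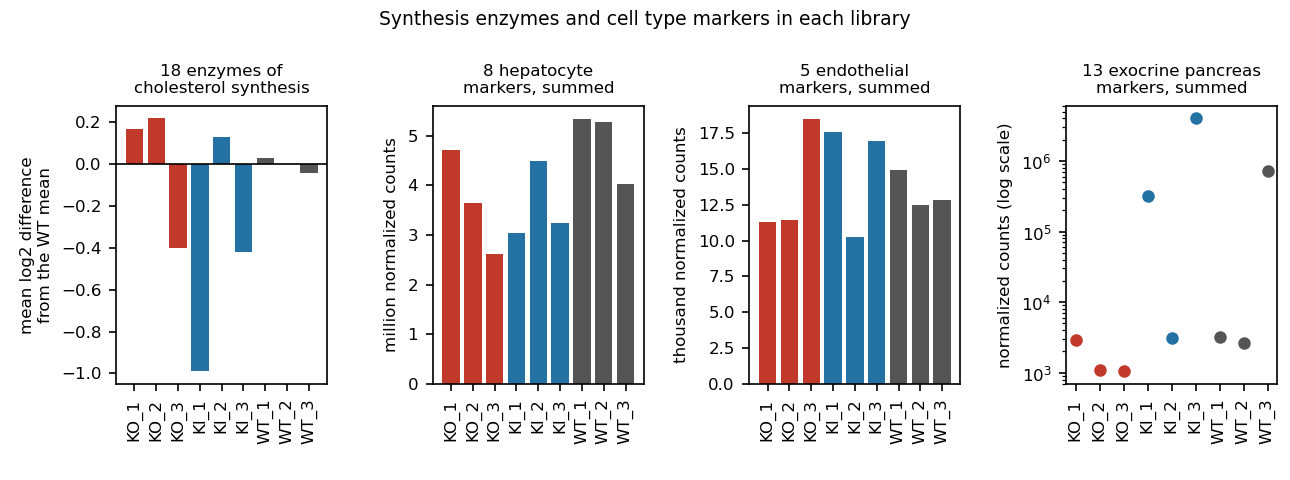
Each library's mean log2 difference from the WT mean over the 18 synthesis enzymes (left), beside its summed hepatocyte, endothelial and exocrine pancreas markers (the last on a log scale). KO_3, KI_1 and KI_3 have enzyme means of -0.40, -0.99 and -0.42, the lowest hepatocyte sums and the highest endothelial sums. Alb makes up most of the hepatocyte sums and is the only marker of that list with these libraries lowest. Clec4g is the largest part of the endothelial sums. Pancreatic markers are high in KI_1, KI_3 and WT_3.

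The mutants were then set against each other. The 2 comparisons with KO share its 3 libraries, so genes high in KO appear in both. In KI against KO, limma called 6 members lower and 0 higher, or 19.4% of the members against 8.45% of all genes tested (4.85% lower and 3.6% higher). The median log2 fold change was -0.36, against 0.01 for all genes. Groups did not overlap in 8 lower and 2 higher members, 32.3% against 26.4% of all genes (14.1% lower and 12.3% higher).

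The genes lower in KI than in KO covered control, synthesis, uptake and esterification. Insig2 had the largest difference of the members, with a mean of 7051 ± 1057 in KI and 22783 ± 3503 in KO (SD, n = 3 each; log2 fold change -1.69 ± 0.21 SE, limma adjusted p = 0.00178). Dhcr7 averaged 4710 ± 1997 in KI and 13126 ± 4019 in KO (-1.51 ± 0.31, adjusted p = 0.0162), and Hmgcs1 averaged 7965 ± 4079 in KI and 17395 ± 3810 in KO (-1.25 ± 0.34, adjusted p = 0.0486). Scarb1 averaged 8899 ± 1159 in KI and 18781 ± 3668 in KO (-1.07 ± 0.17, adjusted p = 0.00576). Both esterifying enzymes were lower in KI, with Soat2 at 788 ± 168 in KI and 1386 ± 95.0 in KO (-0.83 ± 0.16, adjusted p = 0.0119) and Lcat at 18441 ± 2817 in KI and 29558 ± 4255 in KO (-0.68 ± 0.16, adjusted p = 0.0275). Soat2 had 1320, 1495 and 1343 in the KO libraries, a narrow range that none of the KI values (682, 981 and 701) reached. No KI library reached a KO library in any of these 6 genes.

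The other 25 members did not pass between the mutants. Srebf2 had 1303, 3079 and 1891 in KI, against 3477, 3778 and 3025 in KO, and did not pass (-0.80 ± 0.25, adjusted p = 0.0767), although it did with DESeq2 (adjusted p = 0.049), with the replicate block (0.0495) and without KI_2 (0.00697). Tm7sf2 was on the other side, with 7642 ± 1568 in KI and 4718 ± 1627 in KO (0.74 ± 0.24, adjusted p = 0.0846), and it passed with DESeq2 (adjusted p = 0.0385), with the replicate block (0.0456) and without KO_1 (0.0115). For Hsd17b7 and Sc5d, which sat below WT in both mutants, KI and KO differed by -0.02 ± 0.20 and 0.01 ± 0.24. The early enzymes had negative log2 fold changes in 8 of 8 genes, from -1.42 to -0.15, and the late enzymes in 7 of 10. Without the 3 libraries with pancreatic transcripts these directions turned, with negative values in 2 of the 8 early enzymes (Hmgcs1 and Fdps) and in 1 of the 10 late enzymes (Dhcr7).

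The Insig2 call in KI against KO was kept under 20 of 21 settings, Scarb1 under 19, Dhcr7 and Soat2 under 16, Lcat under 13 and Hmgcs1 under 10. Leaving out KO_2, KI_1 or KI_3 left 2 members lower each time, Insig2 and Scarb1, and leaving out KI_2 gave 8. Without KO_2, KI_1 or KI_3 the adjusted p was 0.0609 to 0.0765 for Dhcr7 and 0.0524 to 0.058 for Soat2. Lcat also missed the threshold without KO_3 or WT_1 (adjusted p = 0.0506 to 0.11 over the 5 libraries), and Hmgcs1 without any library other than KO_1 or KI_2 (adjusted p = 0.0689 to 0.18). Without the 3 libraries with pancreatic transcripts 0 members passed and 4 of all genes did. The log2 fold changes were then -1.47 for Insig2, -0.87 for Dhcr7, -0.86 for Scarb1, -0.51 for Hmgcs1, -0.50 for Soat2 and -0.44 for Lcat, and the members' median was 0.17.

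**Figure D5:**
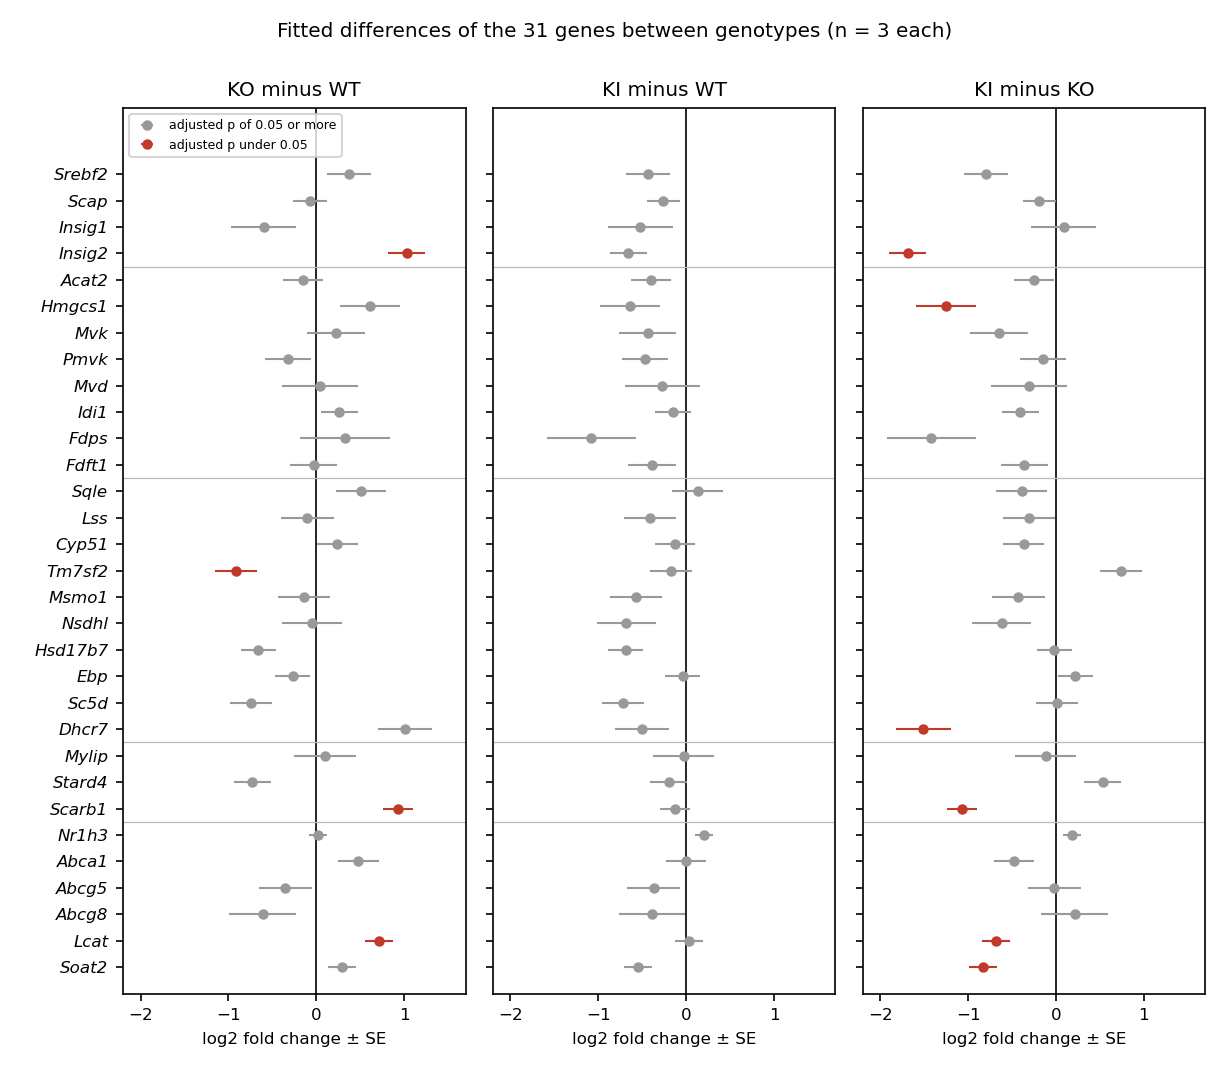
Fitted log2 fold changes of the 31 genes with their standard errors in the 3 comparisons (n = 3 libraries each), red where the limma adjusted p is under 0.05. In KO minus WT 3 genes are red to the right of 0 and Tm7sf2 to the left, in KI minus WT no gene is red, and in KI minus KO 6 genes are red, all to the left.

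Other genes of the pathway gave the surroundings of these changes. Among all genes tested, limma called 8.83% in KO against WT, 0.0263% in KI against WT and 8.45% in KI against KO. Of the 9 sterol and isoprenoid enzymes outside the 31 that are reported here, 0 passed by limma in any of the 3 comparisons. For so few genes this is near those shares. At an unadjusted p under 0.05 there were 3 in KO against WT, 1 in KI against WT and 3 in KI against KO, where edgeR called 0 in each and DESeq2 called 2, 0 and 2. The smallest p in KO against WT were those of Acss2, an acetyl-CoA synthetase (-1.34 ± 0.38, limma adjusted p = 0.0585), and Cyp27a1, a hydroxylase of the sterol side chain (-0.90 ± 0.27, adjusted p = 0.0688). Acss2 had 5810, 2706 and 1925 normalized counts in KO, 2690, 5531 and 3303 in KI, and 7708, 10153 and 6246 in WT, and it passed in KO under upper quartile scaling (adjusted p = 0.0447), the replicate block (0.0461), DESeq2 (0.014) and without KO_1 (0.00348). Cyp27a1 passed under the same 4 settings (adjusted p = 0.00187 to 0.0469). In KI against WT the smallest p were those of Acss2 (-1.10, adjusted p = 0.301) and Pdss2 (-0.22, adjusted p = 0.633), and in KI against KO those of Aacs, an acetoacetyl-CoA synthetase (1.05, adjusted p = 0.0775), and Pdss2 (-0.49, adjusted p = 0.0778).

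Against WT, limma called 8.83% of all genes tested in KO and 0.0263% in KI. Of 14 genes that process or degrade SREBP and its partners, 0 passed against WT in either mutant by limma or edgeR, and 1 was higher in KI than in KO. At an unadjusted p under 0.05 there were 3 in KO against WT and 2 in KI against WT, and DESeq2 called 0 and 1. The 1 of 14 in KI against KO is 7.14%, near the 8.45% of all genes tested. That gene was Nfya, a subunit of the factor that binds CCAAT boxes, with 810, 647 and 733 normalized counts in KI and 551, 482 and 493 in KO (0.52 ± 0.13, limma adjusted p = 0.0391), beside 519, 494 and 564 in WT. The smallest p in KO against WT were those of Rnf145, a ubiquitin ligase (0.35, adjusted p = 0.0887), and Erlin1 (0.39, adjusted p = 0.12). In KI against WT they were those of Nfya (0.47, adjusted p = 0.213, and 0.0487 by DESeq2) and Syvn1, a ubiquitin ligase (0.54, adjusted p = 0.407).

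Among 17 tested genes of sterol uptake and transport, 1 was higher and 1 lower in KO than in WT by limma, or 11.8% against 8.83% of all genes tested. Lipa, the lysosomal lipase that frees cholesterol from lipoprotein esters, had 10085, 9711 and 9623 normalized counts in KO, 4281, 5532 and 4537 in KI, and 6434, 6471 and 6367 in WT. Lipa was higher in KO than in WT (0.61 ± 0.11, limma adjusted p = 0.0103) and lower in KI than in KO (-1.04, adjusted p = 8.44e-04), and its groups were separate throughout. Stard5, a sterol carrier related to Stard4, had 5827, 5280 and 4723 in KO, against 8118, 8122 and 7774 in WT (-0.61 ± 0.12, adjusted p = 0.0122). In KI against KO 3 of the 17 genes were lower by limma, 17.6% against 4.85% of all genes, namely Lipa, Gramd1c and Lrp1. The sterol transfer gene Gramd1c had 497, 1047 and 808 in KI and 1997, 1890 and 1416 in KO (-1.22, adjusted p = 0.0153). The endocytic receptor Lrp1 had 14848, 19913 and 15796 in KI and 37177, 61949 and 33453 in KO (-1.35, adjusted p = 0.0235). In KI against WT, where limma called 0.0263% of all genes tested, limma and edgeR called 0 of the 17. There were 4 at an unadjusted p under 0.05, and DESeq2 called 2 lower. These were the genes with the smallest p by limma, Vldlr (-1.35, limma adjusted p = 0.146; -1.44, DESeq2 adjusted p = 0.00227) and Lipa (-0.43, limma adjusted p = 0.192; -0.43, DESeq2 adjusted p = 0.0267).

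Of 16 partners and targets of LXR, 3 were lower in KO than in WT by limma (18.8%, against 4.2% of all genes tested) and 1 was higher in KI than in KO (6.25%, against 3.6%). In KI against WT, where limma called 0.0263% of all genes tested, limma and edgeR called 0 of the 16. There were 4 at an unadjusted p under 0.05, and DESeq2 called 1 higher and 1 lower. Cyp7a1, which opens the route from cholesterol to bile acids, had 1459, 1116 and 156 normalized counts in KO, 15366, 7538 and 9551 in KI, and 7835, 14121 and 8712 in WT. Its KI and WT libraries overlapped (0.07, limma adjusted p = 0.982), while the difference of KI from KO was 4.03 ± 0.69 (log2, adjusted p = 0.00812). Lipc, the hepatic lipase, had 8412, 2467 and 3160 in KO, against 13458, 12351 and 11521 in WT (-1.62 ± 0.37, adjusted p = 0.0247). Cyp8b1, a later hydroxylase of that route, had 11035, 7032 and 7522 in KO, 5546, 7605 and 5645 in KI, and 18905, 14224 and 15891 in WT. Both mutants lay below WT without overlap. Its log2 fold change over WT was -0.96 in KO (limma adjusted p = 0.0161) and larger, at -1.39, in KI, where it just missed the threshold (adjusted p = 0.0557). In KI it passed under 6 of the 21 other settings, namely no filter (0.0454), upper quartile scaling (0.0447), only those groups (0.0261), DESeq2 (1.44e-07), without KO_1 (0.021) and without KI_2 (0.0369). Nr0b2, which encodes the repressor SHP, followed Cyp8b1 by p in KI against WT (2.06 ± 0.37, limma adjusted p = 0.0884), and passed with DESeq2 (1.95, adjusted p = 7.46e-05) and without KO_1 (0.0432).

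Among these 4 lists outside the 31 genes, Lipa kept its calls under 20 of 21 settings in both comparisons with KO, and Cyp7a1 under 20 in KO against WT and 19 in KI against KO. Nfya kept its call under 11, and missed the threshold without KO_2, KO_3, KI_1, KI_3 or any 1 WT library. Leaving out KO_2 also ended the calls of Gramd1c and Lrp1 in KI against KO and of Cyp8b1 and Lipc in KO against WT. Leaving out WT_1 ended those of Stard5, Cyp8b1 and Lipc in KO against WT. In that comparison Stard5 kept its call under 19 of 21 settings, Cyp8b1 under 16 and Lipc under 13. Cyp8b1 also lost it without KO_3 or WT_3. Lipc also lost it without KO_3, WT_2 or WT_3, with edgeR and with only those groups. In KI against KO Gramd1c kept its call under 18 and Lrp1 under 16, and Lrp1 also lost it without KI_1 or KI_3. Without the 3 libraries with pancreatic transcripts none of these genes passed, and the log2 fold changes in KO against WT were 0.60 for Lipa, -0.63 for Stard5, -4.05 for Cyp7a1, -0.97 for Cyp8b1 and -1.68 for Lipc. In KI against KO they were -0.83 for Lipa, -0.74 for Gramd1c, -1.10 for Lrp1, 0.35 for Nfya and 3.57 for Cyp7a1.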

How the data were processed

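Per the labels' protocols, total RNA from liver tissue was made into stranded mRNA libraries. The submitters' processing notes name TopHat2, Bowtie2 and featureCounts and the build GRCm38; versions, annotation, strand setting, low-count filter and scaling tool are not given in the sources used here. The authors deposited a signal per gene and library, called normalized counts. Each value was found to be a whole read count divided by a size factor of 0.892 to 1.105, within 0.0051 deposited units for at least 99.995% of the values of each library, which gave recovered reads for edgeR and DESeq2. No value column was left without a sample, and 554 genes had no symbol.

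Genes with a mean of at least 10 were tested as log2(value + 1) with limma 3.58.1 in R 4.3.3 (variance trend, 1 mean per genotype over all 9 libraries, 6 residual degrees of freedom), two-sided, with Benjamini-Hochberg adjustment over 15238 genes and a threshold of 0.05. Fold changes on this scale understate those of low genes. Errors beside means are SD and beside log2 fold changes SE. Alternatives were pseudocounts, filters, TMM and upper quartile scaling, pairs of groups alone, a replicate block, edgeR 4.0.16 and DESeq2 1.42.0 on recovered reads, and each library left out, with removal of, or a covariate for, pancreatic transcripts added after seeing the data. The fit was tested on simulated data.

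The members and lists were chosen with earlier results of these data known. Values per library are given for members called in any comparison and the 6 with the smallest p in each, and in other lists for called genes. Where a list had no call, the 2 genes with the smallest p are given, mostly by fold change. Other values per library, of Insig1, Srebf2, Sqle, Abca1, Msmo1, Mpeg1, Mmp8 and Sox9, were chosen after they were seen. So were the values in single libraries of the markers Alb, Hnf4a, Tat, Clec4g, Dcn, Stab2 and Reln. Some genes of the other lists are not reported here. Positions are those of GENCODE M21 (GRCm38).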

Additional observations from a re-analysis of the deposited data

How the results depend on the processing

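No member that passed changed direction under any of the 21 other settings, and of 651 values per comparison 615 (KO against WT), 651 (KI against WT) and 611 (KI against KO) kept their side of the threshold. In KO against WT, 1346 genes passed, and 871 with only those groups, 2295 with DESeq2, 30 without the 3 libraries with pancreatic transcripts, 749 with the pancreas covariate and 501 to 2516 with 1 library left out. Members called higher were 3, and 0 without the 3 libraries (2 to 4 with 1 library left out). Members called lower were 1, and 3 with upper quartile scaling, 4 with DESeq2, 0 with edgeR, 0 without the 3 libraries, 0 with the covariate and 0 to 5 with 1 library left out. In KI against WT, 4 genes passed, and 8 with no filter, 7 with a mean of at least 50, 7 with upper quartile scaling, 28 with only those groups, 372 with DESeq2, 1 with edgeR, 0 without the 3 libraries, 0 with the covariate and 0 to 35 with 1 library left out. The members' median of -0.39 was 0.08 without the 3 libraries and -0.67 to -0.13 with 1 library left out. In KI against KO, 1287 genes passed, and 608 with only those groups, 2287 with DESeq2, 4 without the 3 libraries, 137 with the covariate and 400 to 2301 with 1 library left out. Members called higher were 0, and 1 with the replicate block, 1 with DESeq2 and 0 to 2 with 1 library left out. Members called lower were 6, and 0 without the 3 libraries, 1 with the covariate and 2 to 8 with 1 library left out; the median of -0.36 was 0.17 without the 3 libraries and -0.62 to -0.13 with 1 library left out. Fits without libraries have fewer samples, and the cause of the other shifts was not tested. Not every pair of same-numbered libraries deviated together (correlations of -0.12 to 0.08 for KO and WT, -0.14 to 0.57 for KI and WT and -0.02 to 0.20 for KI and KO, 3 pairs each), so the numbers were not taken as pairs. A replicate block gave 4 members higher and 1 lower in KO against WT, 0 and 0 in KI against WT, and 1 higher and 7 lower in KI against KO. Counting error is small at this depth, and precision is limited by 3 libraries per genotype. Leaving out the 3 libraries with pancreatic transcripts moved the counts as given above. In that fit the loss of samples and the pancreatic content cannot be told apart.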
